A study of Caenorhabditis elegans with 4 samples.

Results

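RPC-1 peaks in the centres of 4 autosomes of Caenorhabditis elegans are described here. A peak of the series-wide list was a member when its midpoint lay in the centre of chromosome II, III, IV or V, the middle 33.3% of its length on WormBase WS220, that is between 5093115 and 10186230 on II, 4594567 and 9189133 on III, 5831264 and 11662529 on IV, and 6974716 and 13949433 on V. The rule used position only and no measured value, and it did not cover chromosome I. It found 272 peaks, 62 on II, 67 on III, 60 on IV and 83 on V, of the 956 peaks of these chromosomes and the 1651 peaks of the whole list. The other 684 peaks of the same chromosomes lay in the outer regions on either side, 298 in the left and 386 in the right.

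Peaks came from ChIP-seq of wild-type worms of strain N2, harvested as L3 larvae from populations that held both males and hermaphrodites. There was 1 group of ChIP libraries, with 2 replicates pulled down with the rabbit polyclonal antibody SDQ4663 against RPC-1, and 1 group of 2 input libraries. Every library came from whole larvae of this one genotype and stage, and extract was treated with 1% sarkosyl before immunoprecipitation. The input libraries have no peak list among those used here, and how they entered the authors' peak calling is not stated. Nothing in the labels says that the ChIP replicates were separate cultures.

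RPC-1 is the largest, catalytic subunit of RNA polymerase III (Pol III), which transcribes tRNA genes, 5S rRNA genes, the U6 snRNA and other short non-coding RNAs. A tRNA gene is short and carries its promoter inside the transcribed sequence, so Pol III sits on a stretch of DNA little longer than the gene. Worm autosomes have a centre with little meiotic recombination, in which many widely expressed and conserved genes lie, and arms with more recombination and more repeated sequence. The centres used here were set by length and do not follow the recombination boundaries. No peak was assigned to a gene, because no WS220 annotation was used.

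Autosome centres held fewer RPC-1 peaks per length than the outer regions. The centres had 12.1 peaks per Mb over 22.5 Mb and the outer regions 15.2 per Mb over 45.0 Mb, a ratio of 0.795 (95% interval 0.689 to 0.917). The centres thus held 28.5% (25.6 to 31.4) of the peaks on 33.3% of the length (two-sided exact binomial test, p = 0.00125, Benjamini-Hochberg adjusted p = 0.00627 over 5 results). Chromosome IV stood lowest, with 10.3 peaks per Mb in its centre and 16.8 outside (ratio 0.612, 0.451 to 0.821, exact test, adjusted p = 0.00276 over the 4 autosomes). On V the densities were 11.9 and 15.3 per Mb (ratio 0.776, 0.595 to 1.00, exact test, adjusted p = 0.0980). On III they were 14.6 and 16.2 per Mb (0.899, 0.664 to 1.21, exact test, adjusted p = 0.688), and on II 12.2 and 12.3 per Mb (0.992, 0.719 to 1.36, exact test, adjusted p = 1.00). All 4 ratios were below 1, and an exact sign-flip permutation over the autosomes gave p = 0.125, the smallest that 4 chromosomes allow. A chi-square test for a difference in ratio between the autosomes gave p = 0.115 (adjusted p = 0.288). Without chromosome IV the ratio was 0.869 and missed the threshold of 0.05 (exact test, adjusted p = 0.154). Each test counted every peak once, and nearby peaks may depend on each other; with peaks up to 10 kb apart counted as 1 unit the ratio was 0.809 (exact test, adjusted p = 0.0421).

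The replicate lists gave the same direction for the 4 autosomes together. Replicate 1 had 279 of its 984 peaks on these chromosomes in the centres, 12.4 per Mb against 15.7 outside (ratio 0.791, 0.687 to 0.910). Replicate 2 had 235 of 855, 10.4 per Mb against 13.8 outside (ratio 0.758, 0.650 to 0.882). On IV the ratio was 0.663 in replicate 1 and 0.597 in replicate 2 (exact binomial tests, adjusted p = 0.0151 and 0.00266). On III the direction was the other way in both, with ratios of 1.01 and 1.03, neither of them past the threshold (exact tests, adjusted p = 0.942 and 0.874). Chromosome II, near 1 in the series-wide list, had ratios of 0.752 and 0.829 in the replicates (exact tests, adjusted p = 0.100 and 0.394). Replicate lists come from the same libraries as the series-wide list and are not separate evidence.

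**Figure D1:**
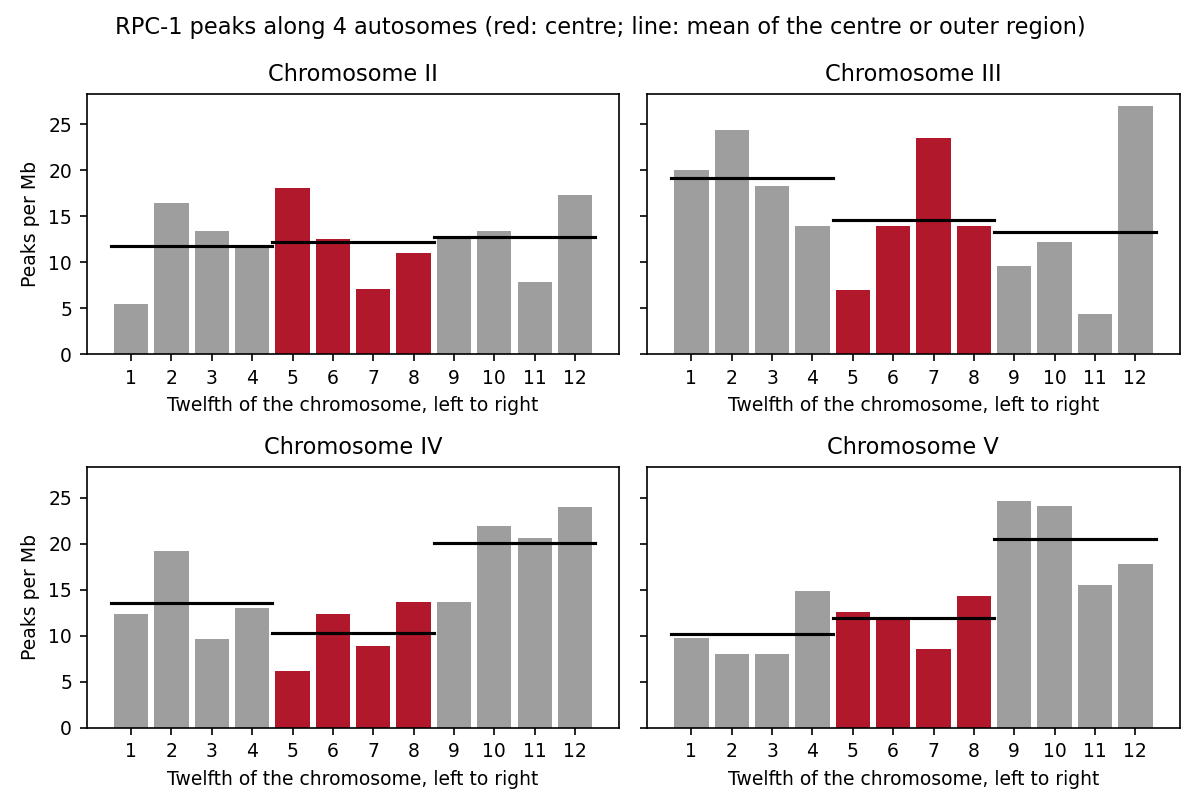
Peaks per Mb of the series-wide list in 12 equal parts of each of 4 autosomes (x axis, left to right); red bars are the 4 parts of the centre, grey bars the outer regions, and each black line is the mean density of its 4 parts. On IV and V the right outer region stands above the centre, at 20.1 and 20.5 peaks per Mb, while on V the left outer region is at 10.2, below the centre.

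The difference from the right side of the chromosomes was the larger one in the series-wide list. The left outer regions had 13.2 peaks per Mb and the right ones 17.2. The ratio of centre to right was 0.705 (0.601 to 0.825, exact binomial test, adjusted p = 0.000128 over 15 pairs of regions, a comparison chosen after the values were seen). The ratio of centre to left was 0.913 (0.771 to 1.08) and did not pass (exact test, adjusted p = 0.277), whereas left and right differed from each other (ratio 0.772, 0.661 to 0.900, exact test, adjusted p = 0.00260). With peaks up to 10 kb apart counted as 1 unit, left and right no longer passed (ratio 0.849, 0.700 to 1.03, exact test, adjusted p = 0.143). Chromosome III went the other way, with 19.2 peaks per Mb on the left and 13.3 on the right. On V the left outer region, at 10.2 peaks per Mb, was below the centre at 11.9, and on III the right one, at 13.3, was below the centre at 14.6. In the replicate lists the centres were below both sides. Their ratio to the left was 0.830 in replicate 1 and 0.799 in replicate 2 (exact tests, adjusted p = 0.0359 and 0.0221), and to the right 0.756 and 0.721 (exact tests, adjusted p = 0.00151 and 0.000899). Left and right did not pass against each other there, with ratios of 0.911 and 0.902 (exact tests, adjusted p = 0.244 for both).

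When each centre was cut at its middle, 133 of the centre peaks lay on the left and 139 on the right (two-sided exact binomial test, p = 0.762). The counts were 39 and 23 on II, 24 and 43 on III, 27 and 33 on IV, and 43 and 40 on V, none past the threshold (exact tests, adjusted p = 0.112, 0.109, 0.692 and 0.826). The fullest window of 1 Mb on III, from 7278294 to 8109839, held 29 of that centre's 67 peaks, 23 of them found in both replicates. The window on V, from 8473284 to 9435345, held 26 of 83, and that on IV, from 8089638 to 9061461, held 22 of 60. On II the fullest window, from 5104969 to 6054911, began at the first centre peak and held 21 of 62. The windows were chosen for their counts, and the mean over 1 Mb was 10.3 to 14.6 peaks in these centres. The longest gap between neighbouring centre peaks was on IV, where 833.1 kb, between the peaks ending at 9477963 and starting at 10311095, held no other peak of any of the 3 lists. The longest gap on II was 508.1 kb, from 7200473 to 7708606, also with no peak of either replicate inside it. The longest gaps on V (479.3 kb) and III (354.5 kb) each held 1 peak of replicate 1 and none of replicate 2. Medians of the distance between neighbouring centre peaks were 48.0 kb on II, 23.4 kb on III, 48.1 kb on IV and 30.6 kb on V.

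Spacing at short range did not differ detectably between centres and outer regions. Of the centre peaks, 150 (55.1%, 49.0 to 61.2) had another peak within 10 kb, and of the outer peaks 381 (55.7%, 51.9 to 59.5). The difference was -0.555 percentage points (-7.54 to 6.35, Fisher's exact test, adjusted p = 0.886). Within 1 kb the shares were 33.1% and 33.8%. The distance from a peak to its nearest neighbour had a median of 5618 bp in the centres and 5077 bp outside.

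When centre peaks up to 10 kb apart were joined, they fell into 178 groups. Of these, 122 were single peaks, 38 were pairs and 18 held 3 or more peaks, 74 peaks in all. The longest groups had 6 peaks. That on IV, from 9046152 to 9061461, had scores from 4.34 to 109.7, and all 6 peaks were found in both replicates. That on V, from 8489272 to 8500787, had scores from 43.4 to 128, also all in both. Several of these peaks shared a replicate peak. The 6 on IV overlapped 5 peaks of replicate 1 and only 2 of replicate 2, and the 6 on V overlapped 6 and 3. Chromosome II had a group of 5 from 5346443 to 5358457, and III had one of 5 from 5761833 to 5782382, along with 3 others of the same size. Every peak of that group on III was at or above the median score, with scores from 65.6 to 139. The others on III were not alike in score. The group from 7408187 to 7423660 scored 1.32 to 5.56, and that from 7444339 to 7448040 scored 3.49 to 13.35. The group from 8638997 to 8653712 scored 75.25 to 163.55.

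Peaks in the centres scored higher than peaks outside when split at the median, although this rested on a narrow range of scores. The score is the caller's own value per peak, on a scale that is not stated, so it was used as a rank within 1 list. The median score was 75.5 in the centres (quartiles 13.5 and 115) and 56.3 in the outer regions (quartiles 13.7 and 116). Of the centre peaks, 152 (55.9%, 49.8 to 61.9) were at or above the median of the 956 peaks, and of the outer peaks 326 (47.7%, 43.9 to 51.5). The difference was 8.22 percentage points (1.20 to 15.1, Fisher's exact test, p = 0.0262, adjusted p = 0.0436). It was 19.5 points on III (5.18 to 32.3, Fisher's exact test, adjusted p = 0.0331 over the 4 autosomes), 6.88 on II, 6.40 on IV and 0.456 on V, the last 3 not past the threshold (Fisher's exact test, adjusted p = 0.614, 0.614 and 1.00). All 4 differences were positive (exact sign-flip permutation over the autosomes, p = 0.125, the smallest possible). A Breslow-Day test for a difference between the autosomes, which is not exact, gave p = 0.265 (adjusted p = 0.365). The call did not hold without II, III or IV, where the difference was 7.77, 4.39 and 8.80 points (Fisher's exact test, adjusted p = 0.104, 0.541 and 0.0660), nor with the chromosome as a stratum (7.80 points, Cochran-Mantel-Haenszel test, adjusted p = 0.0597).

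The shortage of centre peaks was larger below the median score. There the centres had 5.34 peaks per Mb and the outer regions 7.96, a ratio of 0.670. At or above the median the densities were 6.76 and 7.25, a ratio of 0.933, which did not pass (exact binomial test, adjusted p = 0.699). When the II to V peaks were cut by score into 4 classes of 238 to 240 peaks, from the lowest up, the centres held 28.5% (22.8 to 34.6), 21.8% (16.7 to 27.5), 35.3% (29.2 to 41.7) and 28.3% (22.7 to 34.5) of the peaks. The shortage was therefore largest in the second class (scores 13.6 to 63.2), and in the third (63.7 to 115) the centres had 3.73 peaks per Mb against 3.42 outside. In the highest class they had 3.02 per Mb against 3.82, and that class held 68 of the 272 centre peaks and 172 of the 684 outer peaks. The classes were compared as a description, with no test.

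**Figure D2:**
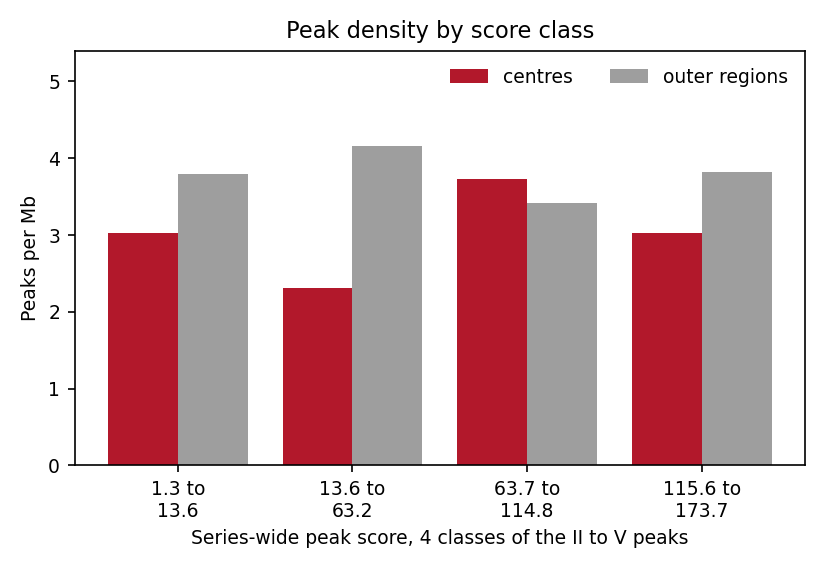
Peaks per Mb (y axis) in the centres (red) and outer regions (grey) of 4 autosomes, in 4 classes of the series-wide score (x axis, with the range of scores). The outer regions are higher in 3 classes, most in the second (4.16 against 2.31), and the centres are higher in the third class.

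The highest score of the list, 173.72, was shared by 10 peaks of these chromosomes, and 5 of them were centre peaks (50%, 18.7 to 81.3). Centre peaks were 28.5% of all 956 peaks, a share within that interval. The 5 lay at II 5292108 to 5292584, III 5080607 to 5081116, IV 5966909 to 5967387, V 9317966 to 9318390 and V 9503295 to 9503764, and were 425 to 510 bp wide. In replicate 1 their scores were 3023 on II, 3100 on III, 3100 on IV, 3030 at the first position on V and 3100 at the second. In replicate 2 each had 3100, a value that many peaks of that list share and that therefore gives no order among them. The peak on IV had no other series-wide peak within 393416 bp, the longest distance of any centre peak, whereas that on II had one at 523 bp.

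In the replicate lists the same split favoured the centres. In replicate 1, 55.9% of centre peaks and 47.7% of outer peaks were at or above the median score of that list's II to V peaks, a difference of 8.25 points (1.32 to 15.0, Fisher's exact test, adjusted p = 0.0470 over 8 tests). In replicate 2 the shares were 60.9% and 46.0%, a difference of 14.9 points (7.40 to 22.1, Fisher's exact test, adjusted p = 0.000985). At the tied score of 3100 or above, replicate 1 had 40 of 279 centre peaks (14.3%, 10.4 to 19.0) and 51 of 705 outer peaks (7.23%, 5.43 to 9.40). Replicate 2 had 119 of 235 (50.6%, 44.1 to 57.2) and 212 of 620 (34.2%, 30.5 to 38.1). The tied shares were seen before they were compared and got no test.

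Centre peaks were also wider. Widths had a median of 341 bp in the centres (quartiles 269 and 450) and of 319.5 bp outside (quartiles 258 and 404). Of the centre peaks, 154 (56.6%, 50.5 to 62.6) were at or above the median width of the 956 peaks, and of the outer peaks 325 (47.5%, 43.7 to 51.3). The difference was 9.10 points (2.08 to 16.0, Fisher's exact test, p = 0.0121, adjusted p = 0.0303). It was 18.2 points on III (3.85 to 31.0, Fisher's exact test, adjusted p = 0.0711), 12.5 on II (adjusted p = 0.243), 6.26 on IV (adjusted p = 0.614) and 0.529 on V (adjusted p = 1.00). Both replicate lists gave 11.8 points (Fisher's exact test, adjusted p = 0.00448 and 0.00584 over 8 tests), with median widths of 514 and 459 bp in replicate 1 and 1287 and 1220 bp in replicate 2. The call did not hold without II (7.12 points) or III (6.04 points), with adjusted p = 0.149 and 0.271 by Fisher's exact test.

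Width moved with score. Spearman's rho of score and width was 0.527 over the 272 centre peaks and 0.572 over the 684 outer peaks, a correlation across peaks that share the same libraries. With the score class as a stratum, a setting chosen after the data had been seen, the difference in wide peaks was 6.10 points and no longer passed (Cochran-Mantel-Haenszel test, not exact, adjusted p = 0.0867). At or above the median score 80.9% of centre peaks were wide, against 73.9% of outer peaks (6.99 points, -1.29 to 14.4). Below it the shares were 25.8% and 23.5% (2.37 points, -6.04 to 11.8).

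**Figure D3:**
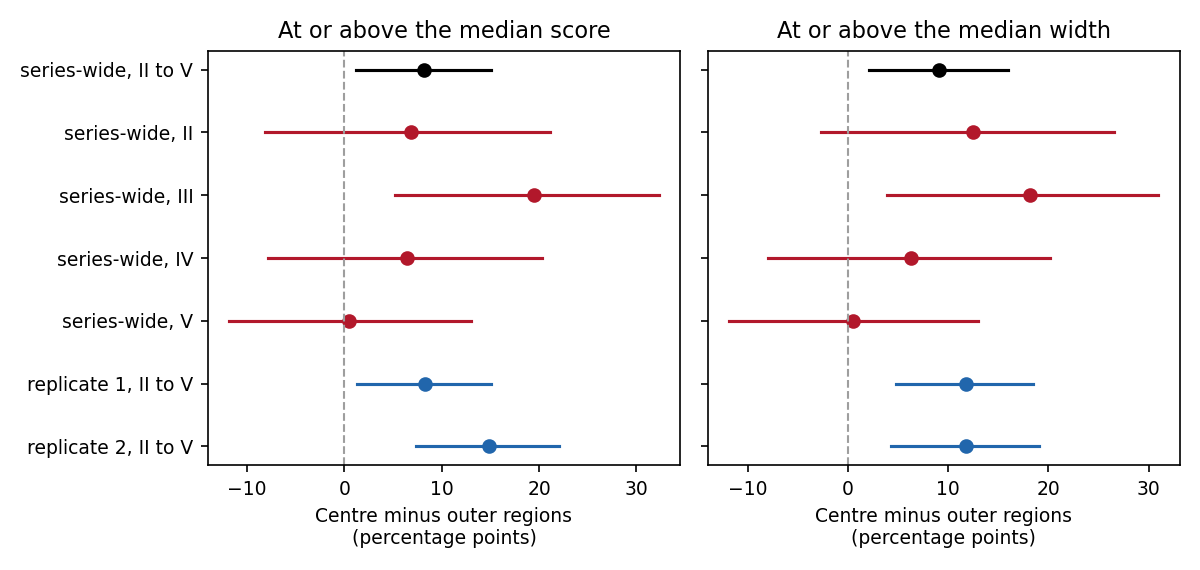
Difference between centres and outer regions (x axis, percentage points, with 95% intervals as lines) in the share of peaks at or above the median score (left) and the median width (right), for the 4 autosomes together (black), each autosome (red) and each replicate list (blue). III lies highest in the series-wide list, at 19.5 and 18.2 points, and V lies at 0.456 and 0.529.

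The widest centre peaks were all on V and scored low. The widest, at V 7916874 to 7924997, spanned 8124 bp with a score of 31.6. Replicate 2 had a peak of 8659 bp there, with a score of 2711, and replicate 1 had none. Next came V 10605648 to 10609848 (4201 bp, score 14.0), V 9428523 to 9430691 (2169 bp, score 10.4) and V 9433486 to 9434877 (1392 bp, score 12.8). The fifth, at V 10609994 to 10610817, was 824 bp wide with a score of 1.36. The region from 10605648 to 10612441 held 5 series-wide peaks, all found in both replicates, and in replicate 2 a single peak of 7376 bp spanned them. The region from 9428523 to 9435345 also held 5 peaks, none of which overlapped a peak of replicate 1 and 4 of which overlapped one of replicate 2.

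These 5 peaks covered 16.7 kb. Series-wide peaks covered 0.617% of the centre of V and 0.544% of its outer regions, and without the 5 the share in the centre was 0.377%. Over the 4 autosomes peaks covered 0.502% of the centres and 0.568% of the outer regions, and 0.428% of the centres without them. The median width in the centres was 340 bp without them. No wide peak was taken out of the outer regions, so the values without the 5 do not compare centres with outer regions. Of the 272 centre peaks, 4 were 1 kb or more wide, and of the 684 outer peaks 14 were.

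The share of peaks found in both replicates did not differ detectably between centres and outer regions. Of the 272, 225 (82.7%, 77.7 to 87.0) overlapped a peak of both replicate lists by at least 1 bp, and of the 684 outer peaks 577 (84.4%, 81.4 to 87.0). The difference was -1.64 points (-7.19 to 3.34, Fisher's exact test, p = 0.559, adjusted p = 0.699). Of the other 47 centre peaks, 12 overlapped only replicate 1, 21 only replicate 2 and 14 neither. All 152 centre peaks and all 326 outer peaks at or above the median score were in both. Below it 73 of 120 centre peaks (60.8%, 51.5 to 69.6) and 251 of 358 outer peaks (70.1%, 65.1 to 74.8) were, a difference of -9.28 points (-19.3 to 0.350, Fisher's exact test, p = 0.0708 before adjustment).

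Chromosome II had the widest difference of the 4, which did not pass after adjustment. There 48 of 62 centre peaks (77.4%) and 113 of 125 outer peaks (90.4%) were in both replicates (Fisher's exact test, p = 0.0236, adjusted p = 0.0942 over the 4 autosomes). Of the remaining 14 centre peaks on II, 8 overlapped only replicate 2, with a median score of 4.67 and 7 of them within 10 kb of another peak. On III no centre peak was in replicate 2 only (0 of 67, 0 to 5.36%). The shares in both were 86.6% against 81.2% on III, 86.7% against 82.7% on IV and 80.7% against 84.6% on V, none of them past the threshold (Fisher's exact test, adjusted p = 0.553 for each).

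**Figure D4:**
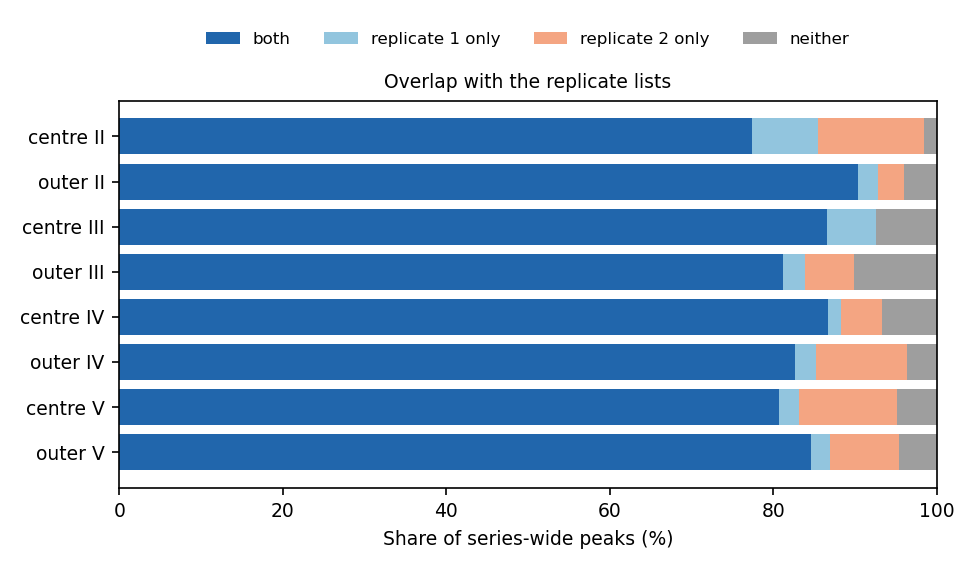
Share of series-wide peaks (x axis, percent) in the centre and outer regions of each autosome that overlap a peak of both replicate lists (dark blue), of replicate 1 only (light blue), of replicate 2 only (orange) or of neither (grey). The centre of II has the lowest share in both, 77.4%, and the outer regions of II the highest, 90.4%.

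The highest-scoring centre peaks not found in both replicates were led by II 5547590 to 5547833 (score 40.3), which overlapped a peak of replicate 1 with a score of 490 and none of replicate 2. The peak at II 5572077 to 5572304 (score 31.8) was likewise in replicate 1 only, with a score of 483 there. The 8124 bp peak on V came next, followed by III 7854506 to 7854703 (score 21.3, replicate 1 only) and V 7912988 to 7913594 (score 20.2, replicate 2 only). The last of these lay 3279 bp from the 8124 bp peak. All 5 scored below the median of the II to V peaks, 63.4.

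Some replicate peaks of the centres had no series-wide peak. In replicate 1 these were 50 of 279 (17.9%), and 133 of 705 (18.9%) outside. In replicate 2 they were 29 of 235 (12.3%), and 100 of 620 (16.1%) outside. The highest-scoring in replicate 1 lay at IV 8578207 to 8581961 (3755 bp, score 355), II 8288336 to 8292814 (4479 bp, score 311) and II 6185188 to 6186501 (1314 bp, score 309). The second of them overlapped a peak of replicate 2 and the other two did not. In replicate 2 the highest-scoring were II 6168379 to 6169409 (score 571), III 5100371 to 5101372 (score 499) and V 13190931 to 13191934 (score 498), none of which overlapped a peak of replicate 1.

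Peaks that matched 1 to 1 across all 3 lists allowed scores of the same region to be set side by side. There were 167 such peaks in the centres and 413 outside. Spearman's rho of the series-wide score and that of replicate 1 was 0.598 in the centres and 0.879 outside. With replicate 2 it was 0.754 and 0.891, and between the replicates 0.831 and 0.904. These are correlations across peaks of the same libraries, in lists with many tied scores, and their difference was noticed in the data and not tested. The matched sets also differed in their range of scores. The lowest and second score classes held 15 and 29 of the 167 centre peaks, against 52 and 125 of the 413 outer peaks. The values of rho were not adjusted for this. By chromosome, rho with replicate 1 was 0.509 in the centre of II (40 peaks), 0.328 on III (45 peaks), 0.680 on IV (40 peaks) and 0.813 on V (42 peaks), against 0.911, 0.793, 0.899 and 0.889 outside.

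The difference in replicate 1 scores was clearest in the third score class of the series-wide list. There 22 of 63 matched centre peaks (34.9%, 23.3 to 48.0) had the tied score of 3100 or above in replicate 1, against 9 of 103 outer peaks (8.74%, 4.07 to 15.9). By chromosome these were 7 of 16 on II, 7 of 18 on III, 6 of 16 on IV and only 2 of 13 on V in the centres. Outside they were 4 of 22, 2 of 17, 1 of 32 and 2 of 32. Series-wide scores in that class had like medians, 89.8 and 89.3, while replicate 1 had a median score of 2572 for the centre peaks and 1461 for the outer ones. Series-wide widths there had medians of 435 bp in the centres and 345 bp outside. In the highest class the tied shares were 12 of 60 (20.0%) and 27 of 133 (20.3%).

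In all, 36 matched centre peaks reached the tied score in replicate 1, and these 36 were among the many that reached it in replicate 2. In replicate 2 it was reached by 43 of 63 matched centre peaks of the third class and 57 of 60 of the highest. Outside it was reached there by 45 of 103 and 115 of 133. The 36 were 439 to 724 bp wide, at or above the median width without exception, and 8 of them had another peak within 10 kb. Matched outer peaks at that score in replicate 1 were wide too, such as those of 838 bp on III and 829 bp on II. Matching left out peaks that shared a replicate peak with another series-wide peak. The 8 are therefore not comparable with the 150 of all 272 centre peaks. By chromosome the 36 numbered 11 on II, 10 on III, 9 on IV and 6 on V. Their series-wide scores ran from 58.4 to 174. The lowest were V 11782675 to 11783232 (58.4), III 4689465 to 4689985 (62.9), III 8109300 to 8109839 (65.8), II 8546881 to 8547349 (73.0) and III 8638997 to 8639487 (75.3). Each of these 5 had 3100 in both replicates.

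**Figure D5:**
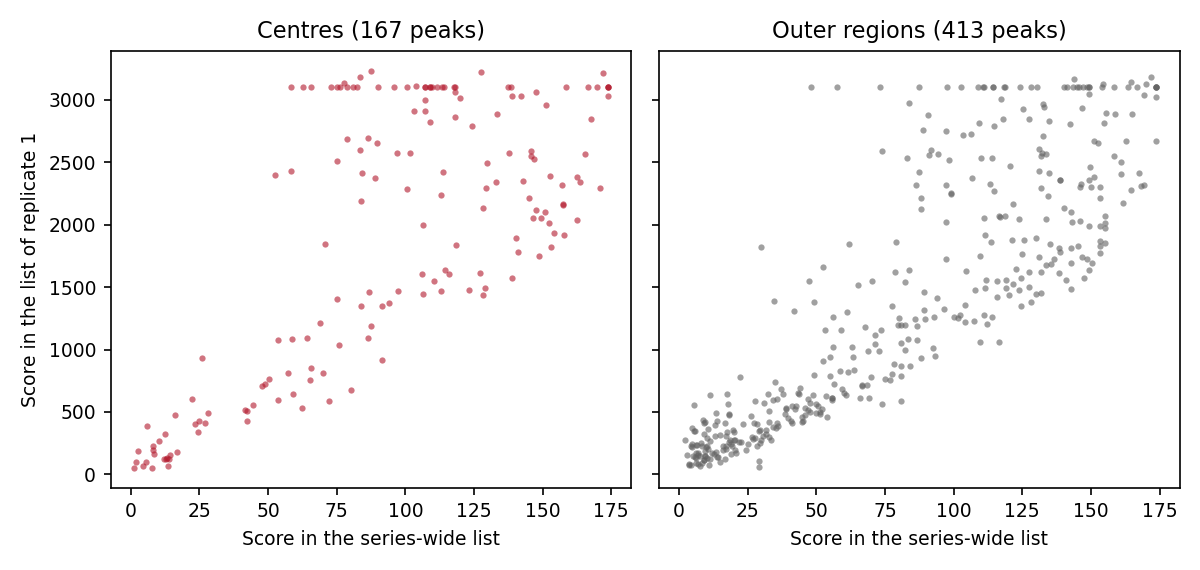
Score in the list of replicate 1 (y axis) against score in the series-wide list (x axis) for peaks matched 1 to 1 across the 3 lists, in the centres (left, 167 peaks) and outer regions (right, 413 peaks). The row of points at 3100 is the tied score of replicate 1; 22 of 63 peaks of the third score class (63.7 to 115) lie on or above it in the centres, against 9 of 103 outside.

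Replicate 2 gave the wider peak in all 167 matched centre peaks and in 412 of 413 outer ones. The median ratio of widths was 2.20 (quartiles 1.94 and 2.54) in the centres and 2.40 (quartiles 2.06 and 2.87) outside. Midpoints of the matched peaks of the replicates lay within 200 bp of each other in 166 of the 167 centre regions.

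The limits of the centres fell between peaks that were in part unlike. On II the nearest peak inside the lower limit, at 5104969 to 5105478, scored 107 and the nearest outside, at 5057232 to 5057703, scored 172. Inside and outside the upper limit of II the scores were 72.1 and 5.72. On III they were 62.9 and 27.2 at the lower limit and 157 and 117 at the upper. On IV the peak inside the lower limit had the highest score of the list, and the one outside, at 5465601 to 5465748, scored 2.95 and was in neither replicate; at the upper limit the scores were 109 and 52.4. On V they were 113 and 14.7 at the lower limit and 127 and 59.2 at the upper. Of these 16 peaks, 14 were found in both replicates. The closest to a limit was 12.1 kb from it.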

How the data were processed

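RPC-1 ChIP-seq of N2 L3 larvae gave 3 deposited peak lists, 1 for each of 2 ChIP libraries and 1 for the series; the 2 input libraries have no list here. Per the submitters' processing notes, BWA and build ce10 were used. Per the file headers, coordinates are 1-based on WormBase WS220, and the files name MACS as the caller of each replicate's peaks and MACS v2 for the series-wide ones. The deposited score is the authors' value per peak, on a scale not stated. Not given in the sources used here: versions, thresholds, pooling and the use of input. Read depth is unknown. Exact Clopper-Pearson 95% intervals (Newcombe for differences) cover counting error only, and p-values measure the spread over peaks, which are not independent.

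Peaks were split by midpoint. The length of a chromosome was taken from the limits of its centre. Density was tested with a two-sided exact binomial test and shares with Fisher's exact test, in SciPy 1.17.1 and statsmodels 0.14.6 under Python 3.11.15, adjusted by Benjamini-Hochberg over 5 results; the p of an alternative replaced that of its result in this family. Chromosomes were also compared by exact sign flips. A peak was found in a replicate when it overlapped one of its peaks by at least 1 bp. Distances to neighbours were taken edge to edge. The code was tested on simulated data. Peaks were named by rule: on each autosome the highest-scoring centre peak, longest group of neighbours, longest gap, fullest 1 Mb window and nearest peaks to each limit; all centre peaks at the highest score; the 5 widest; the 5 highest-scoring not found in both replicates; and the 3 highest-scoring of each replicate without a series-wide peak. The members matched across lists at the tied score and lowest in the series-wide list, and the other peaks of the regions around the widest, were named after their values were seen. The members, lists and tests were chosen with earlier results of these data known. No WS220 genome was used, so no sequence or gene is given.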

Additional observations from a re-analysis of the deposited data

How the results depend on the processing

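Of 72 alternative values, 49 had the same sign and the same side of the 0.05 threshold as the reported value, 1 was 0 (the difference in peaks found in both replicates at or above the median score, where all peaks were in both), 15 had the same sign but no longer passed and 7 changed sign; 14 of the 72 came from settings chosen after seeing the data. The density ratio of 0.795 no longer passed without chromosome IV (0.869), for peaks with at least the median score (0.933) or against the left outer regions alone (0.913, a setting added later). The difference of 8.22 points in high-scoring peaks no longer passed with the middle 50% of each autosome as the centre (5.90), among peaks found in both replicates (8.17), without II (7.77), III (4.39) or IV (8.80), with the chromosome as a stratum (7.80, a weighted mean over chromosomes), or against the left (7.56) or right (8.73) outer regions alone; for the highest-scoring class of 4 it was -0.146. The difference of 9.10 points in wide peaks no longer passed without II (7.12) or III (6.04), against the left outer regions (7.29) or with the score class as a stratum (6.10), the last 2 added later. The difference in close neighbours, -0.555 points and not called, was 0.724 with the middle 50%, 0.455 without V and 1.79 against the left outer regions. That in peaks found in both replicates, -1.64 points and not called, was 1.28 without II and 0.574 when midpoints had to lie within 200 bp. The cause was not tested. In the settings that left out 1 replicate, the other replicate's own list replaced the series-wide list, except for overlap. The values were 0.758 to 0.791 for density, 8.25 to 14.9 for score, 11.8 in both for width and -3.95 to -3.45 for neighbours. Those for density, score and width repeat the replicate values given above, and all are counted among the 72. Overlap of series-wide peaks with the remaining replicate alone gave -1.66 to 0.290. No paired analysis was possible because the input libraries had no peak list to pair with those of the ChIP. The number of weak peaks depends on read depth, which is unknown, and scores tied at the top cannot be ranked.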
